A study of Mus musculus with 6 samples.

Results

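The genes described here are the 4 TEAD transcription factor genes (Tead1, Tead2, Tead3 and Tead4) and 6 genes of the Hippo pathway that act on or with them (Yap1, Wwtr1, Lats1, Lats2, Vgll4 and Amotl2), 10 of the 56691 genes in the deposited liver RNA-seq table. Tead2 was chosen by its measured counts, which were lower in livers of pregnant mice on a high-fructose diet than in those on chow, so its values are a description and carry no test. The other 9 genes were taken in as members of the pathway. Earlier results of these data were known when the 10 genes were chosen. The series holds 6 poly(A) RNA libraries from whole liver of wild-type (WT) female mice, C57BL/6J per the study's methods: 3 from pregnant mice given the high-fructose diet HFrD from mid-gestation until livers were taken late in gestation (PF group) and 3 from pregnant mice kept on normal chow, NC (PC group). Pregnancy is thus shared by both groups, diet is the contrast, and no ages were given. The study describes the RNA-seq samples as biological replicates, while the labels do not say which animals, litters or batches they came from. The p-values below set the difference between groups against the spread between these samples.

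The Hippo pathway is a kinase cascade in which the MST kinases activate LATS1 and LATS2, and the LATS kinases phosphorylate YAP (Yap1) and TAZ (Wwtr1), which are then held in the cytoplasm or degraded. When phosphorylation is low, YAP and TAZ enter the nucleus, where they do not bind DNA themselves and act mainly through TEAD proteins, which recognise the sequence GGAATG. In liver the pathway is known for restraining organ growth and for keeping hepatocytes and bile duct cells distinct. Much of this control acts on protein phosphorylation and location, which RNA levels do not measure.

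Library totals ranged from 16119145 to 19676361 counts. Albumin (Alb) took 7.56 to 15.8% of the counts in the PF libraries and 18.1 to 19.9% in the PC libraries, and mitochondrial genes took 10.0 to 15.3% and 5.03 to 9.69%. On library totals alone the median log2 difference of all tested genes, PF minus PC, was 0.39. The main scale here is counts per 1000000 (CPM) after scaling with trimmed mean of M values (TMM) factors, which were 0.984 to 1.23 in PF and 0.850 to 0.908 in PC and bring that median to 0.02. Hepatocyte marker genes, led by Alb, had the highest summed level of the marker lists in every library, as in liver. Their summed level was 73892 to 172166 CPM in PF and 216560 to 247222 CPM in PC and did not overlap between groups. The summed markers of cholangiocytes, stellate cells, sinusoidal endothelial cells, mesothelial cells, B cells, Kupffer cells and T or NK cells all overlapped between groups.

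Promoter sequence is shown first for Tead2, the gene with the largest log2 difference of the 9 that could be fitted, and for genes of the group that carry the TEAD motif. The 250 bases before the RefSeq start of Tead2 are at chr7:45215542-45215791 on the plus strand of GRCm38.p6 (57.2% G or C), a build older than the GRCm39 of the deposited table.

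Tead2: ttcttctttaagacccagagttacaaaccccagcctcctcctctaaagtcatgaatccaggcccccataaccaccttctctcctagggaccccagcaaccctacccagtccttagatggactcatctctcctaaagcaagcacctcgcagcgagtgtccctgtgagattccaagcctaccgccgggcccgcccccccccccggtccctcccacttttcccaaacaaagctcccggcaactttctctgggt

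The letters GGAATG, or CATTCC on the other strand, were searched in RefSeq promoter windows of 300 bases, 250 before to 50 after each start. They occur in 14.7% of 32851 windows and in at least 1 window of 16.6% of 27025 genes. No match was found in the Tead2 window or in that of Lats1. Of the 10 genes, 8 had a window (Tead1 and Tead4 had none) and 6 of these 8 held a match. The 30-base stretches below show 1 match for each of 5 genes, with the motif in capitals, read on the strand of the gene. They lie at chr9:102717727-102717756 (Amotl2), chr6:114969268-114969297 (Vgll4), chr9:8004720-8004749 (Yap1), chr3:57576029-57576058 (Wwtr1) and chr14:57746102-57746131 (Lats2) of GRCm38.p6, on the plus strand for Amotl2 and on the minus strand for the others.

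Amotl2: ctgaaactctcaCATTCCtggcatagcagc

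Vgll4: cgagtggggtggGGAATGctgagaaatgcc

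Yap1: cgggagtctgcaGGAATGtagcgacgcgca

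Wwtr1: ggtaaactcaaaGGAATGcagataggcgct

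Lats2: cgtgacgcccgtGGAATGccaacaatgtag

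The sixth gene with a match, Tead3, had 4 of them in 2 of its 3 windows, and a pair of these lie close together at chr17:28350706-28350735 and chr17:28350697-28350726 on the minus strand.

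Tead3, first: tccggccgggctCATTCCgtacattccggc

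Tead3, second: gctcattccgtaCATTCCggccatccccct

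The E-box CACGTG, the core sequence bound by many basic helix-loop-helix factors, was searched in the same way because the study concerns ChREBP, a factor of that family. It occurs in 8.09% of genes with a window, and in Yap1, Lats2 and Vgll4 of the 8 genes here that had a window. Such matches are letters in a window, are not specific to ChREBP and were not measured as bound sites in these data.

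Tead2 encodes a TEAD factor known for its high level in embryonic and progenitor tissues. Its gene is at chr7:44865177-44883068 on the plus strand of GRCm39, with 4788 exonic bases. The counts were 24, 41 and 31 in the PF libraries and 198, 118 and 123 in the PC libraries, each in the order 1, 2, 3 used throughout. Every PF library was thus below every PC library. On the CPM scale the levels were 1.21, 2.48 and 1.45 in PF and 12.7, 7.50 and 7.04 in PC, a mean of 1.72 ± 0.677 (SD, n = 3) against 9.08 ± 3.15 (SD, n = 3). The edgeR log2 difference, PF minus PC, was -2.41 (SE 0.36), which is 5.32-fold lower in PF. Leaving out 1 library at a time gave -2.77 to -2.09. In bulk liver RNA, fewer cells of a type that carries a transcript and less of that transcript per cell cannot be told apart. The summed hepatocyte markers were also lower in every PF library, but that sum is mostly Alb. Of the 6 hepatocyte markers, Alb, Apoa1 and Hnf4a were lower in every PF library, Ttr was higher in every one (2213 to 3880 CPM in PF and 1551 to 2014 CPM in PC), and Cps1 and Tat overlapped between groups. The summed markers of the other 7 cell types overlapped, and the part of cell types in the Tead2 difference was not tested.

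**Figure D1:**
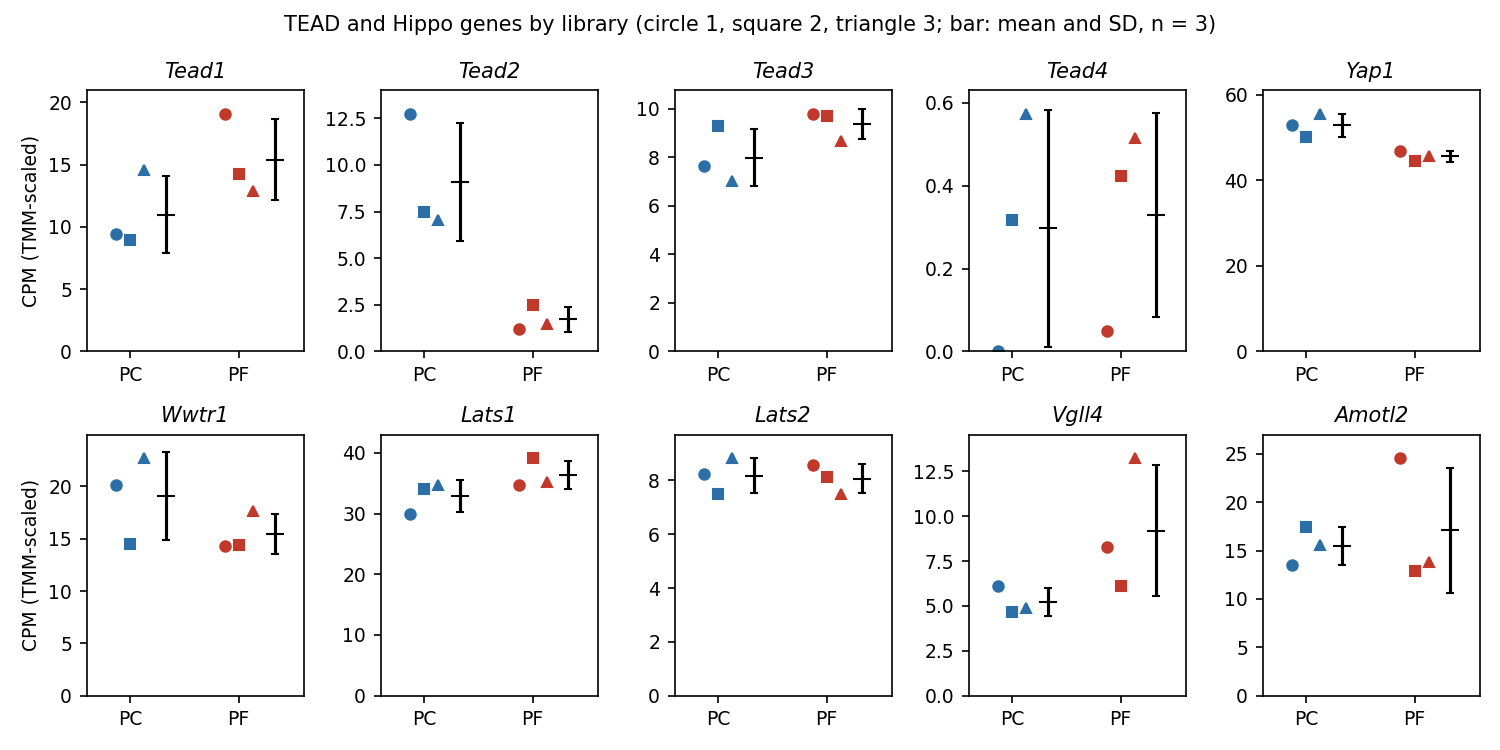
TMM-scaled CPM of each of the 10 genes in the 3 PC (blue) and 3 PF (red) libraries, with circle, square and triangle for libraries 1, 2 and 3 and the mean and SD (n = 3) in black, each panel with its own axis from 0. Tead2 lies between 1.21 and 2.48 CPM in PF and between 7.04 and 12.7 CPM in PC, while Tead1, Tead3, Tead4, Wwtr1, Lats1, Lats2 and Amotl2 overlap between the groups.

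Tead2 lies tail to tail with Cd37, a tetraspanin gene of B cells and other leukocytes, at chr7:44883056-44888539 on the minus strand of GRCm39. The deposited gene models share 13 bases, and in GENCODE M21 all 13 are exonic in both genes. Whether reads were counted by strand is not given in the sources used here, so reads from the shared bases cannot be assigned to a gene. The Cd37 counts were 191, 61 and 78 in PF and 67, 85 and 39 in PC. PF1 was the highest, and the groups overlapped. Cd37 was thus not lower where Tead2 was lower: its edgeR log2 difference was 0.51 (SE 0.48), with an edgeR p of 0.624 after Benjamini-Hochberg adjustment, and it was -0.11 without PF1. Tead2 made up 11.2%, 40.2% and 28.4% of the counts of both genes together in the PF libraries. In the PC libraries it made up 74.7%, 58.1% and 75.9%. The 95% Wilson intervals, which cover counting error only, reached at most 49.9% in PF (PF2) and began at no less than 51.3% in PC (PC2). They leave out the spread between libraries and are no test of the groups, since Tead2 was chosen by its counts. PF1, the library with the most Cd37 counts, also had the highest summed level of 6 B cell markers (110 CPM, against 21.7 to 36.8 CPM in the other PF libraries and 20.1 to 72.4 CPM in PC), and the part of B cells in the Cd37 values was not tested. Of the 10 genes, 6 overlap another gene in the deposited coordinates, and only for Tead2 did the neighbour's counts reach 10% of the gene's own.

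**Figure D2:**
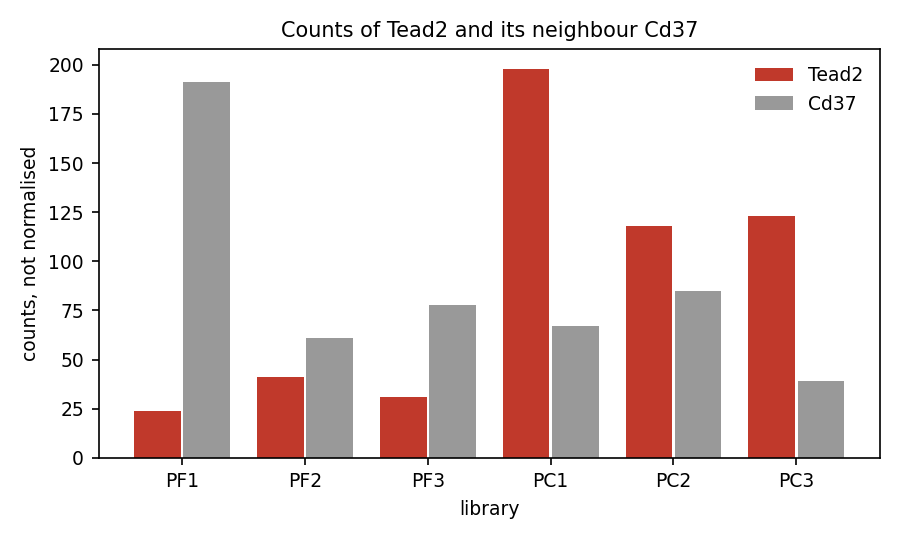
Deposited counts, not normalised, of Tead2 (red) and its overlapping neighbour Cd37 (grey) in each library, as bars from 0. Cd37 exceeds Tead2 in every PF library, and Tead2 exceeds Cd37 in every PC library.

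Levels of different genes were compared as FPKM, the deposited counts per kilobase of exon and per 1000000 counts of the library. TEAD factors share the DNA sequence they bind, and their make-up within a library does not depend on how libraries are scaled to each other. Tead2 took 8.05%, 16.6% and 11.4% of the summed TEAD FPKM in PF and 59.2%, 42.4% and 39.3% in PC. In PC it had the highest FPKM of the 4 TEAD genes in all 3 libraries, and in PF it was below Tead1 and Tead3 in all 3. The mean share was 12.0 ± 4.28% (SD, n = 3) in PF and 47.0 ± 10.7% (SD, n = 3) in PC, a difference of -35.0 percentage points. As a share of raw counts, Tead2 was 4.02 to 9.26% in PF and 24.1 to 42.7% in PC, a difference of -25.4 points. Tead3 took a mean of 46.9% of the summed TEAD FPKM in PF and 30.2% in PC, and Tead1 took 37.9% and 20.6%. Neither overlapped between groups, but shares of a fixed whole move together, and the ratio of Tead1 to Tead3 FPKM, which leaves Tead2 out, did overlap (0.808 ± 0.138 in PF and 0.703 ± 0.283 in PC, SD, n = 3). The ratio of Tead2 to Tead1 was 0.179 to 0.495 in PF and 1.38 to 3.83 in PC.

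**Figure D3:**
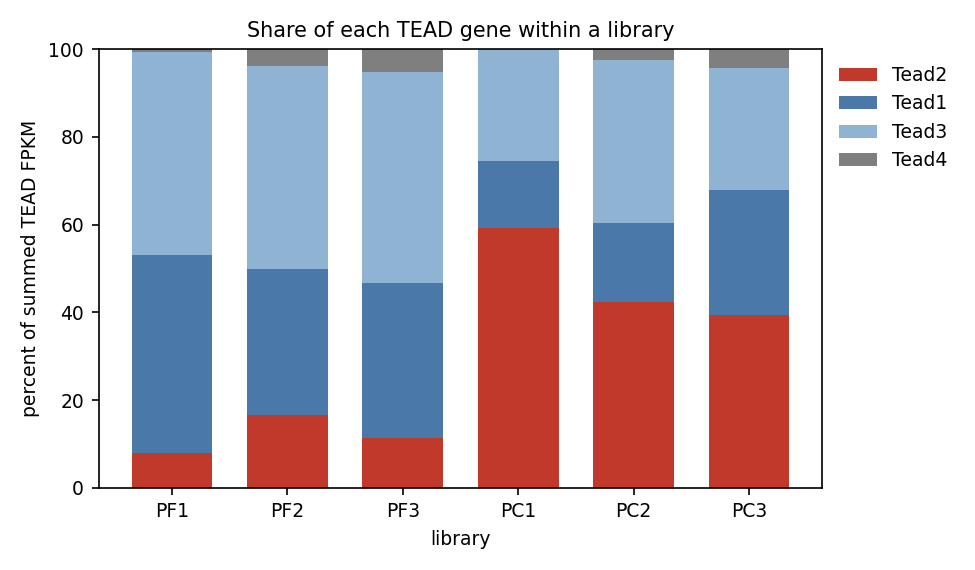
Share of each TEAD gene in the summed FPKM of Tead1, Tead2, Tead3 and Tead4 (percent, y axis), by library, stacked to 100. The red Tead2 segment spans 8.05 to 16.6% in PF and 39.3 to 59.2% in PC.

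The summed TEAD FPKM itself was 3.39 ± 0.406 in PF and 3.50 ± 0.277 in PC (SD, n = 3), and the groups overlapped. Divided by the TMM factor of each library, the sum was 2.98 ± 0.254 and 3.98 ± 0.449 and did not overlap, so the summed level depends on the scaling while the Tead2 share does not.

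For the other genes the test was edgeR's quasi-likelihood test on counts, with p-values adjusted over the 10756 genes whose FPKM averaged 1 or more across the libraries. Tead4 was below that filter (0.0883 FPKM) and was not tested. Tead1 (mean 1.01 FPKM) and Tead2 (1.03 FPKM) were just inside it. Tead1 and Vgll4 reached a mean of 1 FPKM only in PF, and Tead2 only in PC. None of the 8 tested genes other than Tead2 passed an adjusted p of 0.05, and 0.0% of all tested genes did. At an unadjusted p under 0.05, 1 of the 8 was higher in PF (Vgll4), where 9.13% of all tested genes were, and none was lower, where 7.9% were (17.0% in either direction). With DESeq2 none of the 8 passed an adjusted p of 0.05, where 4.58% of all tested genes did, 1.97% higher and 2.61% lower. In CPM, 2 of the 8 did not overlap between groups (Yap1 lower and Vgll4 higher), where 22.9% of all tested genes did not.

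Among the other TEAD genes, Tead1, a widely expressed TEAD factor, lies at chr7:112278525-112506014 of GRCm39. Its levels were 19.0, 14.2 and 12.9 CPM in PF and 9.44, 8.96 and 14.5 CPM in PC. PC3 lay above PF2 and PF3, and the groups overlapped. The log2 difference was 0.49 (SE 0.24), with an edgeR unadjusted p of 0.0822 and an adjusted p of 0.357. An interval of 2 SE either side ran from 1.00-fold to 1.96-fold. Such an interval is a description, narrower than the edgeR test would give, and is no test. Tead3 (chr17:28550645-28569791) had 9.77, 9.70 and 8.67 CPM in PF and 7.64, 9.28 and 7.04 CPM in PC. PC2 lay above PF3, and the log2 difference was 0.23 (SE 0.17), with an edgeR adjusted p of 0.537. Tead4 (chr6:128201251-128277786), a TEAD factor known for its role in the first lineage choice of the embryo, had 1, 7 and 11 counts in PF and 0, 5 and 10 counts in PC, too few to show a difference at this depth.

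Yap1 and Wwtr1 encode the coactivators YAP and TAZ. Yap1 (chr9:7932000-8004597) was at 46.9, 44.4 and 45.6 CPM in PF and 52.9, 50.1 and 55.4 CPM in PC. Every PF library was below every PC library on this scale, as for 11.1% of all tested genes, but by little: the means were 45.6 ± 1.28 and 52.8 ± 2.66 (SD, n = 3), the log2 difference was -0.21 (SE 0.13) and the edgeR adjusted p was 0.435. On library totals alone the sign turned, to 0.16. Wwtr1 (chr3:57363070-57483331) was at 14.3, 14.4 and 17.6 CPM in PF and 20.2, 14.5 and 22.7 CPM in PC. PC2 was level with the lower PF libraries and below PF3. The log2 difference was -0.31 (SE 0.20, edgeR adjusted p 0.468), and it was 0.07 on library totals alone. The ratio of Yap1 to Wwtr1 FPKM, 1.54 in PF and 1.47 in PC on average, overlapped between groups, as did the ratio of both coactivators to the summed TEAD FPKM (2.76 and 2.45).

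Lats1 and Lats2 encode the kinases that phosphorylate YAP and TAZ. Lats1 (chr10:7556978-7592224) was at 34.8, 39.1 and 35.2 CPM in PF and 29.9, 34.1 and 34.8 CPM in PC, with a log2 difference of 0.14 (SE 0.13, edgeR adjusted p 0.620). Lats2 (chr14:57927119-57995845), itself a target gene of YAP, was at 8.57, 8.12 and 7.50 CPM in PF and 8.22, 7.50 and 8.81 CPM in PC. Its log2 difference was -0.02 (SE 0.16, edgeR adjusted p 0.964), and the 2 SE interval ran from 0.787-fold to 1.23-fold. Neither kinase gene separated the groups on the CPM scale. On the FPKM scale, which has no TMM factor, Lats1 was 5.27 to 5.87 in PF and 3.48 to 4.24 in PC and did not overlap. Tead1, Tead3, Lats2 and Vgll4 also had every PF library above every PC library on that scale, and Yap1 overlapped there. The share of all tested genes that separate in FPKM was not computed, so no result about these genes is read from that scale. On library totals, which FPKM is scaled by, the median log2 difference of all tested genes was already 0.39.

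Vgll4 encodes a cofactor that binds TEAD proteins in competition with YAP and represses their targets, and lies at chr6:114837589-114946955. It had 164, 101 and 282 counts in PF and 95, 73 and 85 counts in PC. As CPM these were 8.26, 6.12 and 13.2 in PF and 6.10, 4.64 and 4.86 in PC. The groups did not overlap, as for 11.8% of all tested genes in this direction, but PF2 and PC1 were nearly level and PF3 was far above the rest. The means were 9.20 ± 3.64 and 5.20 ± 0.787 CPM (SD, n = 3), 1.77-fold higher in PF, with a log2 difference of 0.83 (SE 0.30), an edgeR unadjusted p of 0.0273 and an adjusted p of 0.241 (0.167 with DESeq2). Without PF3 the log2 difference was 0.47. The ratio of Vgll4 to the summed TEAD FPKM was 0.491, 0.364 and 0.910 in PF and 0.251, 0.233 and 0.240 in PC. This ratio did not overlap between groups, but against Tead1 and Tead3 alone, without Tead2, it did (0.457 to 1.09 in PF and 0.422 to 0.615 in PC).

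Amotl2 encodes an angiomotin-family scaffold that binds YAP and is also one of its target genes (chr9:102593871-102610617). It was at 24.5, 12.9 and 13.8 CPM in PF and 13.5, 17.4 and 15.6 CPM in PC. PF1 was the highest, and PF2 was the lowest of the 6. The log2 difference was 0.14 (SE 0.26, edgeR adjusted p 0.823), and it was -0.21 without PF1.

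**Figure D4:**
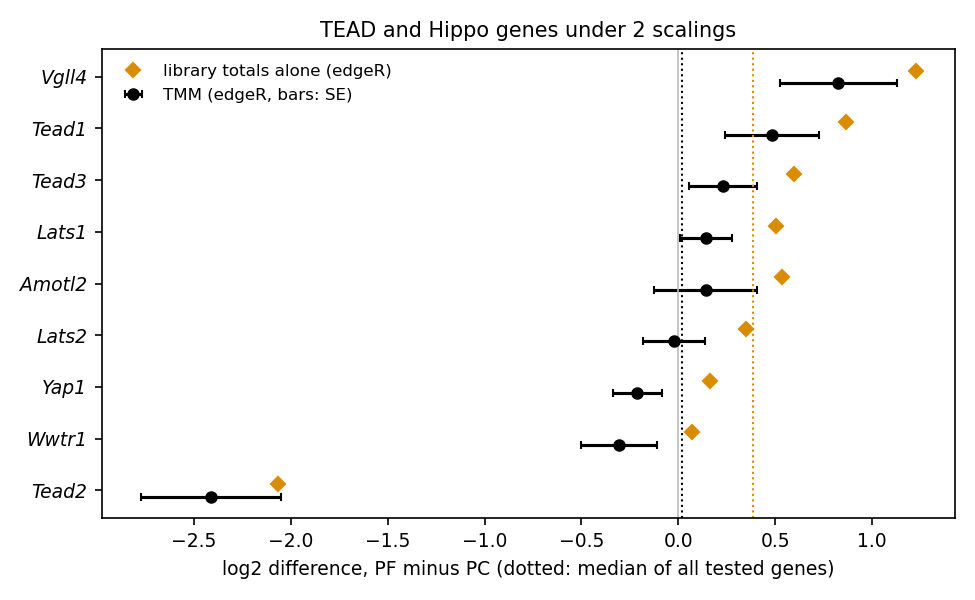
Log2 difference, PF minus PC, of the 9 genes that were tested or described, with TMM factors (black, bars are 1 SE) and with library totals alone (orange), and the median of all tested genes under each scaling as a dotted line. With TMM Tead2 is at -2.41 and Vgll4 at 0.83, and the change of scaling moves the median of all genes from 0.02 to 0.39, which turns Yap1, Wwtr1 and Lats2 from below to above 0.

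The order of the levels, as mean FPKM, differed between groups most at Tead2 and Vgll4. In PC it ran from Yap1 (5.03) through Lats1 (3.98), Wwtr1 (3.51), Amotl2 (2.18), Tead2 (1.66), Tead3 (1.05), Lats2 (1.03), Vgll4 (0.847) and Tead1 (0.713) to Tead4 (0.0733). Neighbours whose ranges overlapped in PC were Lats1 and Wwtr1, Amotl2 and Tead2, Tead3 and Lats2, and Vgll4 and Tead1. In PF the order ran from Lats1 (5.65) and Yap1 (5.63) through Wwtr1 (3.70), Amotl2 (3.16), Vgll4 (1.99), Tead3 (1.59), Lats2 (1.32) and Tead1 (1.30) to Tead2 (0.397) and Tead4 (0.103). Ranges of neighbours overlapped in PF except between Yap1 and Wwtr1, Tead1 and Tead2, and Tead2 and Tead4. Tead2 thus stood above Tead3, Lats2, Vgll4 and Tead1 in PC and below all of them in PF.

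The rest of the pathway was described by 47 other Hippo genes, of which 33 were tested. None passed an adjusted p of 0.05 with edgeR or with DESeq2, 24 were higher and 9 lower in PF, and the median log2 difference was 0.14, beside 0.02 over all tested genes (0.50 and 0.39 on library totals alone). At an unadjusted p under 0.05, 3 of the 33 were higher and 2 were lower, where 9.13% and 7.9% of all tested genes were. The groups did not overlap for 6 higher and 2 lower genes, where 11.8% and 11.1% of all tested genes did not. Taken in either direction, both counts are near the share over all tested genes (17.0% and 22.9%).

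Among the core kinases and adaptors, the 5 genes tested had a median log2 difference of 0.03. Sav1, the adaptor of the MST kinases, was at 10.0, 9.88 and 8.85 CPM in PF and 7.19, 7.37 and 6.47 CPM in PC, without overlap (log2 difference 0.45, SE 0.16, edgeR adjusted p 0.230). It was the 1 of the 5 that was higher without overlap, where 11.8% of all tested genes were. The kinase gene Stk3 and the LATS cofactor genes Mob1a and Mob1b had log2 differences of 0.03, 0.15 and -0.03 (edgeR adjusted p 0.958, 0.788 and 0.942). Sav1 overlaps Atl1 on the other strand by 1406 bases.

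Of 22 upstream activators and scaffolds, 13 were tested, and 12 were higher and 1 lower in PF. Their median log2 difference was 0.22, beside 0.02 over all tested genes. At an edgeR unadjusted p under 0.05, 1 of the 13 was higher, where 9.13% of all tested genes were. In CPM, 2 of the 13 were higher in PF without overlap, where 11.8% of all tested genes were. The kinases of the MAP4K and TAO families can phosphorylate LATS in place of MST. Map4k6, also named Mink1, was at 44.5, 46.6 and 52.5 CPM in PF and 37.4, 39.4 and 39.0 CPM in PC, and Taok2 at 43.0, 49.8 and 49.8 CPM in PF and 37.6, 42.4 and 35.3 CPM in PC. Neither overlapped between groups, and both log2 differences were 0.31 (edgeR adjusted p 0.288 and 0.329). Map4k4 (0.75, edgeR adjusted p 0.313) and Map4k2 (0.57, edgeR adjusted p 0.314) had larger log2 differences and overlapped. Map4k4, among the 12 that were higher, reached a mean of 1 FPKM only in PF (1.64, and 0.73 in PC).

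Of 10 inhibitors of the kinases, 9 were tested. In CPM, 2 of the 9 were lower in PF without overlap and 1 was higher. Over all tested genes these shares were 11.1% and 11.8%. Ajuba, a LIM protein that binds and inhibits LATS, was at 8.77, 9.70 and 3.65 CPM in PF and 14.2, 16.6 and 14.4 CPM in PC. All PF libraries were below all PC libraries, with PF3 the lowest (log2 difference -1.04, SE 0.34, edgeR adjusted p 0.212). Its relative Limd1 was at 25.0, 31.6 and 25.4 CPM in PF and 35.0, 35.8 and 36.2 CPM in PC, also without overlap (log2 difference -0.38, SE 0.14, edgeR adjusted p 0.243). In FPKM the Limd1 groups overlapped (5.09 to 5.16 in PF and 4.94 to 5.40 in PC). On library totals alone the Limd1 log2 difference was -0.03. Strn3 and Slmap, of the STRIPAK phosphatase complex that removes phosphate from MST, each had a log2 difference of 0.15 (edgeR adjusted p 0.685 and 0.606), and Strn3 overlaps Ap4s1 on the other strand.

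Of 10 other cofactor, kinase and turnover genes, 6 were tested, and Vgll1 and Vgll2 had no count in any library. Stk38, an NDR kinase related to LATS, was at 90.5, 75.9 and 81.9 CPM in PF and 53.0, 63.1 and 60.2 CPM in PC. The groups did not overlap (log2 difference 0.49, SE 0.15, edgeR unadjusted p 0.0112, adjusted p 0.193). Its relative Stk38l, the kinase gene Nlk and the casein kinase gene Csnk1e had log2 differences of 0.18, 0.19 and 0.14 (edgeR adjusted p 0.692, 0.555 and 0.768). Nlk did not overlap either, at 12.0, 12.4 and 13.8 CPM in PF and 11.8, 9.91 and 11.7 CPM in PC. In CPM, 2 of the 6 were thus higher without overlap, where 11.8% of all tested genes were.

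**Figure D5:**
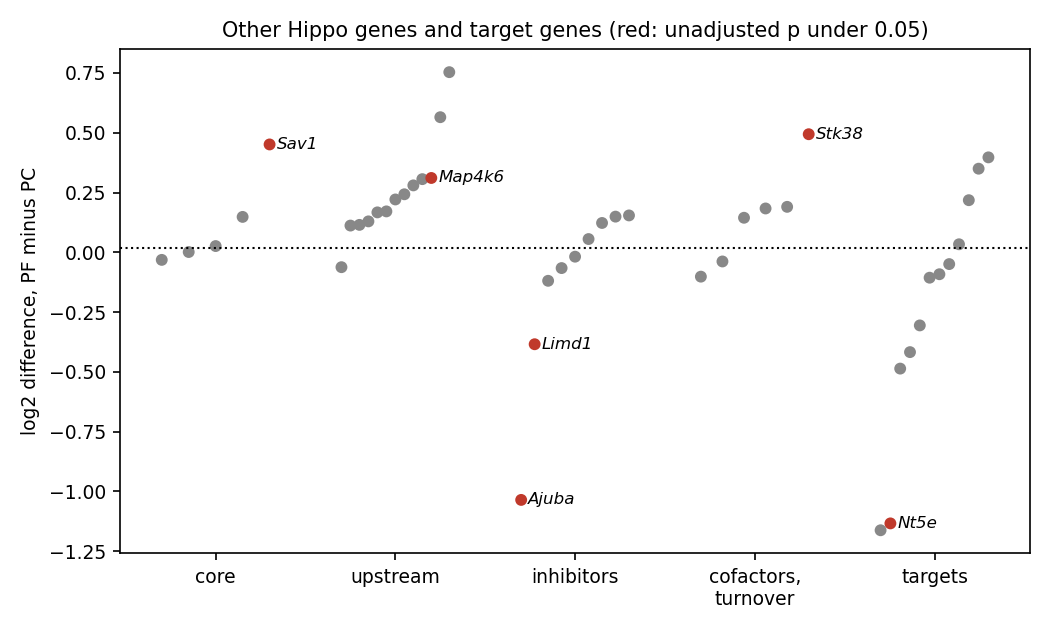
Log2 difference, PF minus PC, of each tested gene of the 4 lists of other Hippo genes and of the list of YAP/TAZ-TEAD target genes, 1 point a gene, in red with its name where the edgeR unadjusted p was under 0.05. The dotted line is the median of all tested genes (0.02), and no gene of these lists passed the adjusted threshold with edgeR.

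Target genes of YAP/TAZ-TEAD give a readout of the pathway at the RNA level. Of 20 listed, 12 were tested, 4 were higher and 8 lower in PF, and the median log2 difference was -0.10, beside 0.02 over all tested genes. None passed the edgeR adjusted threshold. The matricellular genes Ccn1 and Ccn2, often used as such a readout, overlapped between groups: Ccn1 was at 10.4, 11.0 and 14.0 CPM in PF and 7.32, 12.5 and 7.04 CPM in PC (log2 difference 0.40, SE 0.26, edgeR adjusted p 0.478). Ccn2 was at 2.17, 2.12 and 5.58 CPM in PF and 3.98, 2.80 and 2.92 CPM in PC (log2 difference 0.03, SE 0.42, edgeR adjusted p 0.978, and -0.59 without PF3). Ccn2 reached a mean of 1 FPKM only in PF (1.34, and 0.993 in PC). Ankrd1, below the filter and not tested, had 27, 7 and 15 counts in PF and 6, 3 and 7 in PC. In CPM it was at 1.36, 0.424 and 0.703 in PF and 0.385, 0.191 and 0.401 in PC. Every PF library was thus higher, but PF2 and PC3 had the same count and were nearly level in CPM. Among all tested genes, 11.8% were higher in PF without overlap. Nt5e, the ectonucleotidase CD73, was at 73.6, 58.4 and 35.7 CPM in PF and 135, 72.3 and 160 CPM in PC. PF1 lay just above PC2, so the groups overlapped. Its log2 difference was -1.13 (SE 0.36), with an adjusted p of 0.201 with edgeR and 0.0380 with DESeq2, and it was the 1 gene of these lists that DESeq2 called, where 2.61% of all tested genes were called lower. Gadd45b (-1.16, edgeR adjusted p 0.425) and Dock5 (0.35, edgeR adjusted p 0.403) had log2 differences that did not pass either test, and that of Gadd45b was -2.11 without PF2 and -0.48 without PC2.

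The 5 tested genes whose log2(CPM + 1) followed that of Tead2 most closely over the 6 libraries were Rab2a, Myo18a, Syt1, Gm14097 and Slc22a2, with Pearson r from 0.993 to 0.997. Gm14097 overlaps Shld1 on the other strand. These are the highest of all tested genes, the points share depth and group, and the values describe likeness only. Rab2a, a small GTPase of transport between the endoplasmic reticulum and the Golgi, was at 82.1, 90.4 and 86.2 CPM in PF and 133, 116 and 116 CPM in PC. Slc22a2, an organic cation transporter, had 3, 13 and 0 counts in PF and 201, 85 and 117 in PC. Syt1 and Slc22a2 reached a mean of 1 FPKM only in PC. In CPM each of the 5 had all PF libraries below all PC libraries and PC1 as the highest library, as Tead2 did. This pattern follows from choosing them by likeness to Tead2, and 11.1% of all tested genes were lower in PF without overlap. In FPKM the Rab2a groups overlapped (41.7 to 48.7 in PF and 48.3 to 53.0 in PC). Within the Hippo genes described above, r with Tead2 was 0.82 for Yap1, 0.54 for Wwtr1, 0.09 for Lats2, -0.34 for Amotl2, -0.65 for Tead3, -0.66 for Lats1, -0.72 for Vgll4 and -0.75 for Tead1.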

How the data were processed

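Poly(A) RNA of mouse liver was sequenced in 6 libraries, grouped by title and treatment in the labels. The table deposited by the authors gives raw counts per gene and library. The FPKM deposited by the authors is each count over exonic length and library total. GRCm39, HISAT2 2.2.1, HTSeq 0.6.1, cutadapt 1.9.1 and DESeq2 are named in the processing notes of the submitters. The strand setting is not given in the sources used here. Symbols were matched by Ensembl identifier for 52073 of 56691 genes.

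Genes averaging 1 FPKM or more were tested with edgeR 4.0.16 (quasi-likelihood, TMM, two-sided, R 4.3.3), and p-values were adjusted by Benjamini-Hochberg over these 10756 genes (threshold 0.05). Alternatives were DESeq2 1.42.0, other scalings and filters, limma 3.58.1 on log2(FPKM + 1) and log2(FPKM + 0.1), a replicate block, and each library left out. On simulated counts of the 10756 genes, the test recovered 0% of genes changed 1.5-fold, 14.9% changed 2-fold and 90.9% of genes changed 4-fold. It made 2 false calls among the genes left unchanged. The simulated counts were negative binomial draws around a single mean per gene, apart from the changes put in. On the measured counts the same test called 0 of the 10756 genes. Slc22a2, 28.2-fold lower in PF (edgeR adjusted p 0.120), and Gm14097, 7.71-fold lower (edgeR adjusted p 0.133), were among those not called. Whether these recovery rates hold for the measured libraries was not tested. The 10 genes and all lists were chosen with earlier results of these data known. Besides the 10 genes and any gene overlapping them, the text names up to 4 genes of each list with the smallest unadjusted p and every one that passed, Ccn1, Ccn2 and Ankrd1, and the 5 genes most like Tead2. Total counts, from 16119145 to 19676361, limit the precision of genes with few counts. No 2 libraries of a group agreed within sampling noise.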

Additional observations from a re-analysis of the deposited data

How the results depend on the processing

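Over all genes, 0 passed with edgeR and TMM (1832 had an unadjusted p under 0.05), beside 493 with DESeq2, 180 on library totals alone (161 higher and 19 lower), 1 with filterByExpr, 555 with no filter, and 4 and 2 with limma on log2(FPKM + 1) and log2(FPKM + 0.1). Leaving out 1 library gave 0 to 403, with 403 without PF2 and 1 without PF1. None of the 8 tested genes other than Tead2 was called under any of the 15 alternatives. Of the other Hippo and target genes, 1 was called by DESeq2 (Nt5e) and 2 with no filter (Ajuba and Nt5e), and none when a library was left out. The Tead2 log2 difference was -0.92 and -1.81 on log2(FPKM + 1) and log2(FPKM + 0.1), scales that understate changes of low genes, and -2.77 to -2.09 with a library left out. Its share of TEAD FPKM differed by -38.8 to -28.9 points with a library left out and by -25.4 points on raw counts, and its share of the counts with Cd37 by -49.8 to -35.3 points.

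Library totals and FPKM move the median of all genes from 0.02 to 0.39, 0.29 and 0.36. Under library totals, log2(FPKM + 1) and log2(FPKM + 0.1), these log2 differences changed sign: Yap1 to 0.16, 0.13 and 0.15, Wwtr1 to 0.073, 0.060 and 0.075, Lats2 to 0.35, 0.19 and 0.32, and Mob1b to 0.34, 0.24 and 0.31. Lats2 was also 0.013 with upper quartile factors, and Stk3 was -0.0031 with no filter. With a library left out, the ranges that crossed 0 were -0.080 to 0.036 for Lats2, -0.21 to 0.30 for Amotl2, -0.11 to 0.80 for Cd37, -0.083 to 0.14 for Stk3, -0.018 to 0.32 for Mob1a, -0.13 to 0.072 for Mob1b, -0.031 to 0.30 for Stk38l and -0.59 to 0.26 for Ccn2. The cause of these changes was not tested.

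With the replicate number as a block, 0 genes passed, the Tead2 log2 difference was -2.40, and Ccn2 turned to -0.092. The numbers share no stated pairing: deviations of same-numbered libraries correlated at -0.17, 0.27 and 0.11, and PF1 and PF3 correlated best with another number.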
